A study of Mus musculus with 384 samples.

Results

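Gfi1-only wells are single granulocyte/macrophage progenitors (GMPs) that carry the transcript of Gfi1 and next to none of Irf8. A well belonged to this set when Gfi1 reached 20 CPM (a gene's reads per 1000000 reads on genes) and Irf8 stayed under 20 CPM. Of 384 wells, 316 had at least 200000 reads on genes and at least 2000 genes with a read, and 146 of those 316 were members. Of the members, 42, 21 and 71 came from the sets labelled BCR-ABL replicate 1, 2 and 4, and 12 came from the control. The other 170 kept wells held Irf8 alone (83), both transcripts (66) or neither (21) at these limits.

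Gfi1 encodes a zinc-finger repressor that GMPs need to form neutrophils, while Irf8 encodes a transcription factor that drives monocyte and dendritic cell fate. The factors oppose each other, and committed neutrophil precursors keep Gfi1 as Irf8 falls away. Such precursors then fill their granules in order: first the primary granules with myeloperoxidase (Mpo) and proteases such as neutrophil elastase (Elane), and later the secondary and tertiary granules.

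All sets came from C57Bl/6 mice of the Scl-tTA::TRE-BCR/ABL system, in which a tetracycline transactivator under Scl control, active in blood stem and progenitor cells, switches on the BCR-ABL fusion oncogene of chronic myeloid leukaemia once doxycycline is removed. The sources describe breeding on doxycycline at 20 mg per L in the drinking water, its removal when mice were 5 weeks old, and analysis after a further 5 to 6 weeks. 3 sets, written here as BCR-ABL replicates 1, 2 and 4, are labelled as induced and 1 as control, and the genotype or treatment behind the word control is not detailed in the labels. Cells were enriched for c-Kit and sorted 1 per well into 96-well plates by c-Kit, CD34 and FcγR on the surface and the absence of Sca-1 and lineage markers, so every well had already passed a gate on the CD34 and FcγR proteins. Whether the sets come from separate animals, or pool several, is not stated, so p-values measure only the spread between these sets, which may be technical.

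The members made up 58.3% of kept wells in BCR-ABL replicate 1 (exact 95% binomial interval 46.1 to 69.8%), 35.6% in replicate 2 (23.6 to 49.1%), 78% in replicate 4 (68.1 to 86%) and 12.8% in the control set (6.77 to 21.2%). These shares follow from the choosing transcripts and are given as a description. Median Gfi1 among members was 159 CPM, 179 CPM, 181 CPM and 180 CPM in the 3 BCR-ABL sets and the control set. Median Irf8 among them was 1.49 CPM, 2.21 CPM, 0 CPM and 8.33 CPM, beside 435 CPM, 418 CPM, 52.7 CPM and 971 CPM in the other wells of the same sets. Members without an Irf8 read numbered 8 of 42, 3 of 21 and 44 of 71 in the BCR-ABL sets and 0 of 12 in the control set. Irf8 chose the wells, so these counts are a description only. The lowest Gfi1 values inside the limit were 20.3 CPM, 31 CPM and 31.4 CPM, and the highest Irf8 values inside were 20.0 CPM, 15.9 CPM and 15.7 CPM. Just outside, wells without Irf8 reached 12.1 CPM of Gfi1, and wells with both transcripts began at 28.6 CPM of Irf8.

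**Figure D1:**
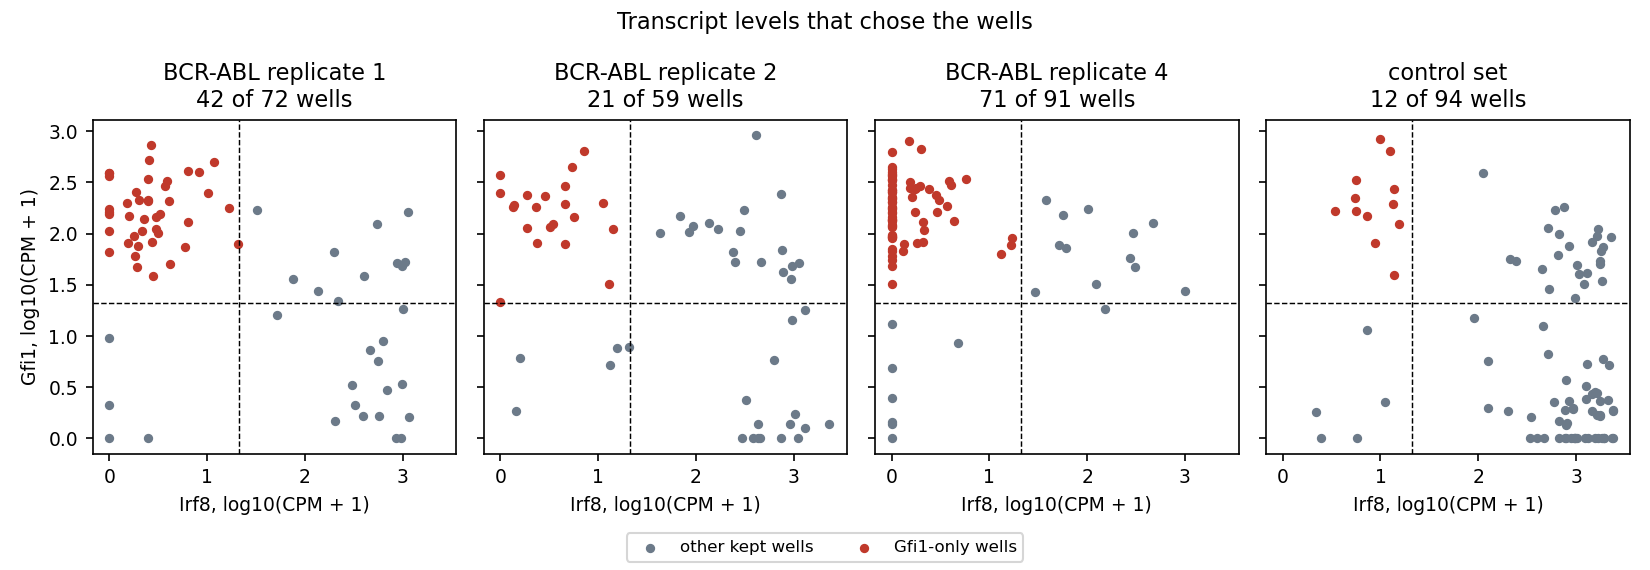
Gfi1 (y axis) against Irf8 (x axis) in every kept well, both as log10(CPM + 1), with 1 panel per set, Gfi1-only wells in red, other kept wells in grey and dashed lines at the limit of 20 CPM. The red wells number 42 of 72, 21 of 59, 71 of 91 and 12 of 94, and they fill the upper left of each panel.

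Member wells were less deeply read than the other kept wells of their set. Their median reads on genes were 1344957, 1396115, 1370096 and 840878 in set order (BCR-ABL replicates 1, 2 and 4, then control, the order used throughout), beside 1893568, 2408985, 1848181 and 1297887 in the other wells. Their median share of spike-in reads was higher in each set, at 0.462%, 0.802%, 0.481% and 0.727% against 0.320%, 0.316%, 0.333% and 0.484%. Of the members, 25 had under 0.5 times the median reads of their set, against 8 of the other wells, and 1 member of BCR-ABL replicate 4 stood apart with 19454 genes with a read where the next well had 11679. No wells had identical counts, and no doublet caller was run. The members' reads summed to 61406633, 32022141, 102216773 and 11468130 per set, so the control sum rests on 12 wells and is the least precise.

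The 4 further markers that came with the label of a neutrophil-primed cell are given as a description. They were picked with earlier results of these data known, so their values cannot test the label. Elane was at 24036 CPM, 20011 CPM, 20210 CPM and 18200 CPM in the summed members against 12101 CPM, 15686 CPM, 16336 CPM and 12513 CPM in the other wells. Cebpe, the C/EBP factor of terminal granulocyte differentiation, was at 85.2 CPM, 142 CPM, 83.6 CPM and 118 CPM against 29.7 CPM, 23.3 CPM, 46.2 CPM and 21.3 CPM. In both genes every set had its members above its other wells, as in 12.9% of all genes tested, and the groups did not overlap. Clec4a2, an inhibitory C-type lectin receptor of myeloid cells, and Far2, a fatty acyl-CoA reductase, were also above in 4 of 4 sets, with log2 differences of 1.57 ± 0.35 and 1.38 ± 0.32 (SE). All 4 markers were higher in members, although Elane was abundant in wells of every kind.

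Promoters of 4 neutrophil genes are shown because S100a8 and S100a9, which encode the calprotectin subunits, separated the members from other wells far more than the serine protease genes Elane and Prtn3 did. The 250 bases before each RefSeq gene start (GRCm38.p6) are given 5′ to 3′ on the gene's strand: S100a8 at chr3:90668821-90669070 (plus strand), S100a9 at chr3:90695722-90695971 (minus), Elane at chr10:79886062-79886311 (plus) and Prtn3 at chr10:79879417-79879666 (plus). Capitals mark matches, on either strand, to the C/EBP letters TTNNGNAA, to the PU.1 core GAGGAA and to the Gfi1 core AATCAC, and none of the marked stretches overlap.
S100a8: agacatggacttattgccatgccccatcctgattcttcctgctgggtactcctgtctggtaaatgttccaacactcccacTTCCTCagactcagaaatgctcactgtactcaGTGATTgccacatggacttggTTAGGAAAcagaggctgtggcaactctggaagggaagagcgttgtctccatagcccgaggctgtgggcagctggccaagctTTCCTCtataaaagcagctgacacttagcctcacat
S100a9: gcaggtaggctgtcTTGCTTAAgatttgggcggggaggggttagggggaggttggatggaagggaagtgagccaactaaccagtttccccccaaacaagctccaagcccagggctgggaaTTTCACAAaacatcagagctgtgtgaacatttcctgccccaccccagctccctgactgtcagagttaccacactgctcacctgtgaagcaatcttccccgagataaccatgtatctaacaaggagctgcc
Elane: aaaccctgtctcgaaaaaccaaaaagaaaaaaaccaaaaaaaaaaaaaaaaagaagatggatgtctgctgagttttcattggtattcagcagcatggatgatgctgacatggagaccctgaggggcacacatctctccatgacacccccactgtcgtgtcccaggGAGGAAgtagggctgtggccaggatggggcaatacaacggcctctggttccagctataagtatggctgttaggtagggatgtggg
Prtn3: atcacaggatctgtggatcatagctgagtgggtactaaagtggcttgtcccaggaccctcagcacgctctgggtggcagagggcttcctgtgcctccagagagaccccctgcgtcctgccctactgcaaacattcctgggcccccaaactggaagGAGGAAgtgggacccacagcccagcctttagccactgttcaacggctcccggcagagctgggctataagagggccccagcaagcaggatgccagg
The S100a8 window held 1 match for C/EBP, 2 for PU.1 and 1 for Gfi1, and the S100a9 window held 2 for C/EBP. The Elane and Prtn3 windows held 1 PU.1 match each. Among 32851 promoters of the same length, 36.8% held the C/EBP letters, 23.3% those of PU.1 and 9.14% those of Gfi1, so each match is a common event and only describes the letters present.

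Against all other kept wells, no gene passed the test after adjustment. Reads were summed per set over members and over other wells, and edgeR's quasi-likelihood F test with the set as a block called 0 of 15306 genes (0%) at an adjusted p under 0.05. Without adjustment, 1045 genes (6.83%) were higher in members and 1224 (8%) were lower at a p under 0.05, and DESeq2 called 708 higher and 748 lower. Members were above the other wells in 4 of 4 sets for 12.9% of genes and below for 14.1%. Genes whose groups do not overlap are a part of these. Their own share over all genes was not counted, here or in the later comparisons, so lack of overlap only describes the genes named. The wells were chosen by Gfi1 and Irf8, so transcripts that go with either in GMPs can differ through the choice itself, and the differences below describe what accompanies this pair.

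The lowest adjusted p belonged to Milr1, which encodes an inhibitory immunoglobulin-like receptor first known from mast cells. It was at 16.6 CPM, 16.4 CPM, 12.9 CPM and 29 CPM in members and 113 CPM, 81.7 CPM, 71.8 CPM and 146 CPM in other wells, with no overlap (log2 difference -2.48 ± 0.14, adjusted p = 0.0751). Once every well was thinned to 200000 reads, 33.6% of members and 88.2% of other wells had a Milr1 read. Part of its exons overlaps Polg2 on the other strand, and the strand setting of the counting is not given in the sources used here, so its level includes what the authors' counting assigned there. The same limit holds for Abcb10, Emb, Far2, Csf1r, Mpo, Prtn3, Txndc5, Anxa9 and Rnase4, whose exons also overlap those of a neighbouring gene.

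Other genes with the smallest p values were higher in members of every set. Ltb4r1, the high-affinity receptor for the neutrophil attractant leukotriene B4, was nearly level across the members' sums at 216 CPM, 218 CPM, 234 CPM and 215 CPM, against 97.8 CPM, 97.8 CPM, 113 CPM and 90.8 CPM (log2 difference 1.14 ± 0.09, adjusted p = 0.155). Abcb10, a mitochondrial inner membrane transporter, was at 120 CPM, 152 CPM, 104 CPM and 93.8 CPM against 44.4 CPM, 53.2 CPM, 54.3 CPM and 44.3 CPM. Ankrd12, a nuclear ankyrin repeat protein, had a log2 difference of 1.26 ± 0.12, and Tmsb4x, the actin-binding thymosin beta 4, one of 0.49 ± 0.06. The first 3 of these showed no overlap between the groups.

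Lower genes included Emb, which encodes the adhesion glycoprotein embigin. It stood at 486 CPM, 575 CPM, 449 CPM and 565 CPM in members and at 1080 CPM, 1060 CPM, 776 CPM and 1407 CPM in other wells (log2 difference -1.04 ± 0.10). Atp5b, the beta subunit of mitochondrial ATP synthase, was at 1966 CPM, 1872 CPM, 1850 CPM and 1501 CPM against 2880 CPM, 2674 CPM, 2518 CPM and 2341 CPM. Itpripl1, a membrane protein related to a regulator of the IP3 receptor, was lower in 4 of 4 sets by a log2 value of -1.41 ± 0.14. Ms4a4c, a member of the Ms4a family of membrane proteins, had 2, 1, 1 and 3 reads in all the members of a set together, while the other wells held 8.42 CPM, 5.53 CPM, 1.03 CPM and 17.7 CPM. Atp5b and Emb did not overlap between the groups either.

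**Figure D2:**
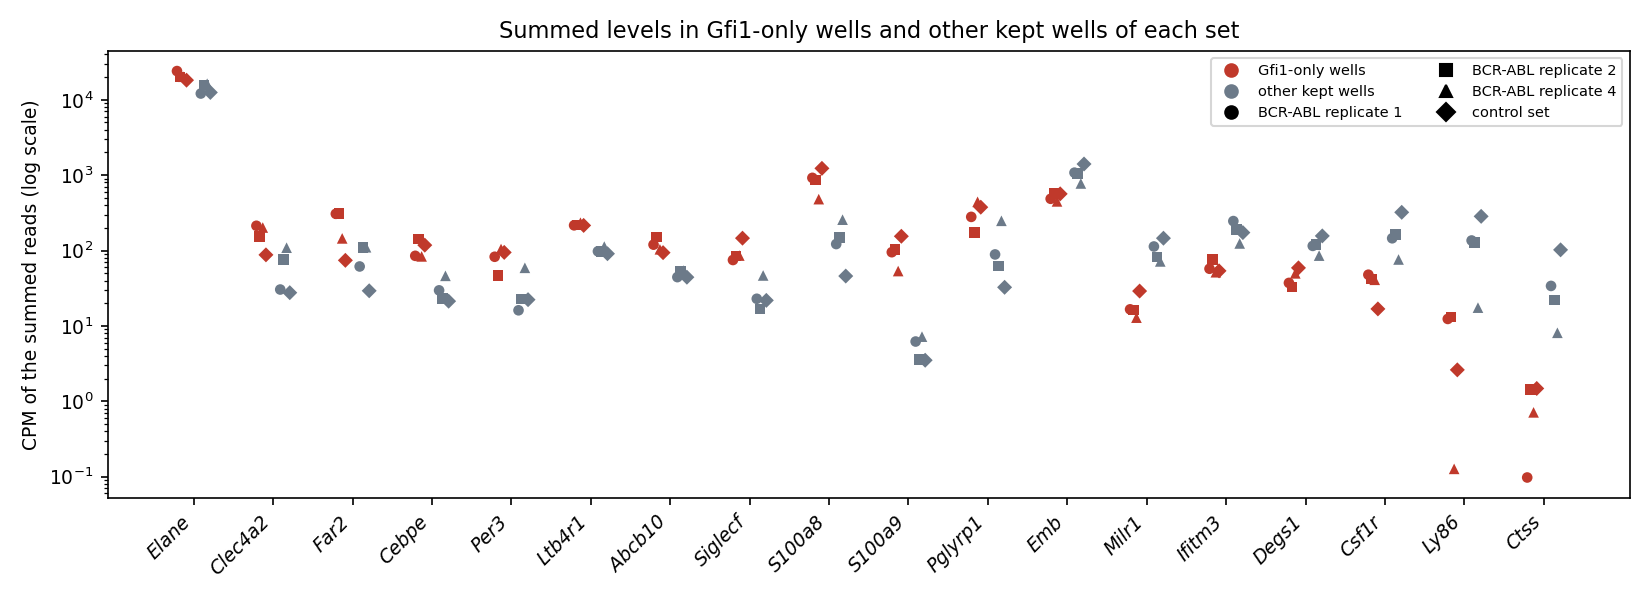
Level of 18 genes, as CPM of the reads summed over wells on a log scale, in Gfi1-only wells (red) and the other kept wells (grey), with 1 marker shape per set. Red lies above grey in every set for the first 11 genes, from Elane to Pglyrp1, and below it for the last 7, from Emb to Ctss.

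Primary granule genes leaned upward by small amounts. All 14 listed genes were tested and 12 had a positive difference, with a list median of 0.49 on the log2 scale beside -0.03 over all genes tested. Members were higher in 4 of 4 sets for 11 of the 14, 10 were higher at an unadjusted p under 0.05, and 1 was lower. Mpo, which makes hypochlorous acid, was the most abundant, at 33149 CPM, 30761 CPM, 32567 CPM and 33800 CPM against 25442 CPM, 27952 CPM, 29199 CPM and 29807 CPM. Srgn, the proteoglycan that packs granule proteases, was at 4885 CPM, 3936 CPM, 4658 CPM and 3475 CPM against 3072 CPM, 2722 CPM, 3832 CPM and 1971 CPM. For Mpo the members' lowest sum lay above the highest of the other wells, while for Srgn the groups overlapped only through BCR-ABL replicate 4.

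Within that list the range was wide. Prtn3, proteinase 3, was almost level, at 6546 CPM, 6835 CPM, 5533 CPM and 6622 CPM against 6324 CPM, 6477 CPM, 5618 CPM and 5521 CPM (log2 difference 0.09 ± 0.06). Nkg7, a granule membrane protein, had a difference of 0.91 ± 0.18 and Fcnb, the lectin ficolin B, one of 1.65 ± 0.59. Ctsc, the cathepsin that activates granule serine proteases, ran the other way. It was at 74.7 CPM, 55.7 CPM, 64.5 CPM and 138 CPM in members and 400 CPM, 356 CPM, 109 CPM and 274 CPM in other wells, lower in 4 of 4 sets by a log2 value of -1.72 ± 0.39 (adjusted p = 0.177).

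Late granule and mature neutrophil genes were present only in part. Of 21 listed genes, 16 had enough reads to be tested, and without adjustment 7 passed a p of 0.05 upward and 1 downward. The median difference was 0.76. In the control set the summed list was at 2912 CPM in members against 1593 CPM, but its median over single wells was 1212 CPM against 1263 CPM. In BCR-ABL replicates 1, 2 and 4 that median was higher in members, at 2440 CPM, 2044 CPM and 2552 CPM against 1509 CPM, 1414 CPM and 1697 CPM. S100a8 was at 921 CPM, 864 CPM, 481 CPM and 1232 CPM in members and 122 CPM, 150 CPM, 257 CPM and 45.9 CPM in other wells. S100a9 was at 95.2 CPM, 104 CPM, 53.5 CPM and 155 CPM against 6.21 CPM, 3.61 CPM, 7.21 CPM and 3.51 CPM. Neither gene's groups overlapped. The log2 differences were 2.76 ± 0.66 for S100a8 (adjusted p = 0.191) and 4.29 ± 0.50 for S100a9 (adjusted p = 0.155).

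Pglyrp1, a peptidoglycan recognition protein of neutrophil granules, was at 280 CPM, 173 CPM, 443 CPM and 376 CPM against 88.8 CPM, 62.2 CPM, 248 CPM and 32.6 CPM. Wfdc21, a small whey acidic protein of neutrophil precursors, was at 137 CPM, 95.4 CPM, 94 CPM and 87.5 CPM against 28.2 CPM, 44.8 CPM, 43.3 CPM and 1.58 CPM. Transcripts of the later granules stayed near 0 in the members: Ltf (lactoferrin) had no read in BCR-ABL replicates 1 and 2 and 0.108 CPM and 0.174 CPM in the other two sets, and Mmp9 was at 0.00978 CPM in BCR-ABL replicate 4 and without a read elsewhere. Camp, the cathelicidin precursor, was at 4.19 CPM, 1.66 CPM, 4.83 CPM and 4.36 CPM. Lcn2, which encodes the siderophore-binding lipocalin of secondary granules, did not separate the wells, with members higher in only 1 of 4 sets (log2 difference -0.05 ± 0.21).

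Among 13 listed granulocyte regulators, 12 were tested, 5 were higher at an unadjusted p under 0.05 and none was lower. Besides Cebpe (log2 difference 1.86 ± 0.34, adjusted p = 0.156), Per3, a period-clock gene, was at 82.7 CPM, 46.6 CPM, 105 CPM and 94.5 CPM against 16.1 CPM, 22.8 CPM, 59.1 CPM and 22.3 CPM. Myb, a regulator of progenitor growth, was at 591 CPM, 577 CPM, 663 CPM and 940 CPM against 332 CPM, 413 CPM, 580 CPM and 333 CPM. Cebpa and Spi1 (PU.1), the factors that set up the myeloid programme before the split into lineages, differed by 0.07 ± 0.09 and -0.07 ± 0.09. Gfi1b, the paralogue of Gfi1, had 0.00978 CPM in BCR-ABL replicate 4 and no read in the other members.

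Monocyte identity genes leaned down in the members. All 18 listed genes were tested, all 18 had a negative difference, 10 were lower at an unadjusted p under 0.05 and 11 were below in 4 of 4 sets, with a median of -1.40. Csf1r, through which macrophage colony-stimulating factor signals, was at 47.8 CPM, 42.2 CPM, 41 CPM and 16.8 CPM against 146 CPM, 164 CPM, 76.1 CPM and 322 CPM. Ctss, a lysosomal protease, was at 0.0977 CPM, 1.44 CPM, 0.714 CPM and 1.48 CPM against 34 CPM, 22 CPM, 8.11 CPM and 102 CPM. Neither gene's groups overlapped. Ly86, which partners a Toll-like receptor homologue, was lower by a log2 value of -4.86 ± 0.85, and 38.6% of its reads in members came from 1 well.

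Some genes of the monocyte list stayed abundant in members. Ly6c2, whose product marks inflammatory monocytes but is also found on neutrophil precursors, was at 4186 CPM, 4045 CPM, 3839 CPM and 2460 CPM against 3604 CPM, 4700 CPM, 4006 CPM and 5306 CPM, and its near-identical neighbour Ly6c1 makes its counts uncertain. F13a1, a clotting factor subunit of monocytes, still had 427 CPM, 231 CPM, 409 CPM and 67.5 CPM in members, below the 941 CPM, 671 CPM, 756 CPM and 876 CPM of the other wells. Of the monocyte regulators, Klf4 was at 0.635 CPM, 0.468 CPM, 0.00978 CPM and 0 CPM in members and Irf5 was below in 4 of 4 sets (log2 difference -1.19 ± 0.29). Id2, an inhibitor of helix-loop-helix factors, was above in 4 of 4 sets, at 26.5 CPM, 23.5 CPM, 47.4 CPM and 15.4 CPM against 9 CPM, 8 CPM, 33.6 CPM and 2.89 CPM.

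More of the cytokine receptor genes were lower than higher in members. Of 22 listed, 20 were tested, and at an unadjusted p under 0.05 there were 2 upward and 8 downward, with a median of -0.36. Csf3r, the receptor for granulocyte colony-stimulating factor, was at 197 CPM, 217 CPM, 179 CPM and 201 CPM against 99.3 CPM, 146 CPM, 135 CPM and 122 CPM. Kit was the other higher gene (log2 difference 0.62 ± 0.19). The lower ones included Il6ra, at 54.9 CPM, 53.9 CPM, 54.4 CPM and 52.8 CPM against 81.3 CPM, 94.9 CPM, 85.9 CPM and 136 CPM. Its signalling partner Il6st (gp130) was at 0.668 CPM, 7.40 CPM, 4.16 CPM and 0.436 CPM against 28.9 CPM, 47.1 CPM, 25.1 CPM and 95.6 CPM. Csf3r and both interleukin 6 receptor chains showed no overlap between members and other wells.

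C-type lectin receptors did not move as a family. Of 16 listed genes 11 were tested, 3 were higher and 1 was lower at an unadjusted p under 0.05, and the median was 0.09. Clec12a, an inhibitory receptor of granulocyte and monocyte precursors, was at 1908 CPM, 1787 CPM, 1777 CPM and 1793 CPM against 958 CPM, 1096 CPM, 1391 CPM and 920 CPM. Clec4a2 was at 213 CPM, 152 CPM, 202 CPM and 87.7 CPM against 30.4 CPM, 76 CPM, 109 CPM and 27.6 CPM. Clec4b2 was also above in 4 of 4 sets (log2 difference 2.70 ± 0.65), and Clec5a, an activating receptor, was below in 4 of 4 (-0.47 ± 0.10). Clec4a2 and Clec4b2 belong to a cluster of similar genes, so reads may be divided among copies.

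S phase and ribosome biogenesis genes leaned down, unevenly between sets. The summed S phase list was at 3825 CPM against 5808 CPM in BCR-ABL replicate 1 and 3764 CPM against 4030 CPM in replicate 4. In replicate 4 its median over single wells was higher in members, at 3409 CPM against 2652 CPM. The ribosome biogenesis sum was nearly level in the control set, at 4569 CPM against 4602 CPM. All 24 S phase genes had a negative difference, 11 at an unadjusted p under 0.05, with a median of -0.37. The replicative helicase subunit Mcm5 was at 369 CPM, 437 CPM, 393 CPM and 395 CPM against 622 CPM, 649 CPM, 449 CPM and 569 CPM, without overlap. The 18 ribosome biogenesis and Myc target genes also all had a negative difference, 12 at an unadjusted p under 0.05, with a median of -0.44. Nolc1, a nucleolar phosphoprotein, was at 163 CPM, 172 CPM, 180 CPM and 187 CPM against 325 CPM, 340 CPM, 279 CPM and 213 CPM. Of 24 G2/M genes, 5 were lower and none was higher at that level.

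Glycolysis genes had a median of -0.32, and at an unadjusted p under 0.05 7 of 16 were lower with 1 higher. Ldha, which makes lactate, was at 803 CPM, 854 CPM, 811 CPM and 691 CPM against 1467 CPM, 1329 CPM, 1107 CPM and 838 CPM, and Gpi1 was the higher one (log2 difference 0.22 ± 0.07). The 13 protein-coding genes of the mitochondrial genome all had a positive difference, with a median of 0.43 and 12 of 13 above in 4 of 4 sets. Mitochondrial reads were 3.54%, 3.06%, 3.19% and 3.66% of a median member against 3.02%, 2.60%, 3.05% and 2.99% of a median other well. Lower reads and a higher spike-in share moved with membership in the same sets, as given above, and their part in these small differences was not tested as a cause. With the 33 wells of few reads left out, the medians were -0.36 for S phase, -0.44 for ribosome biogenesis, -0.28 for glycolysis, 0.35 for the mitochondrial genes, 0.48 for primary granule, 0.81 for late granule and -1.02 for monocyte identity genes.

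**Figure D3:**
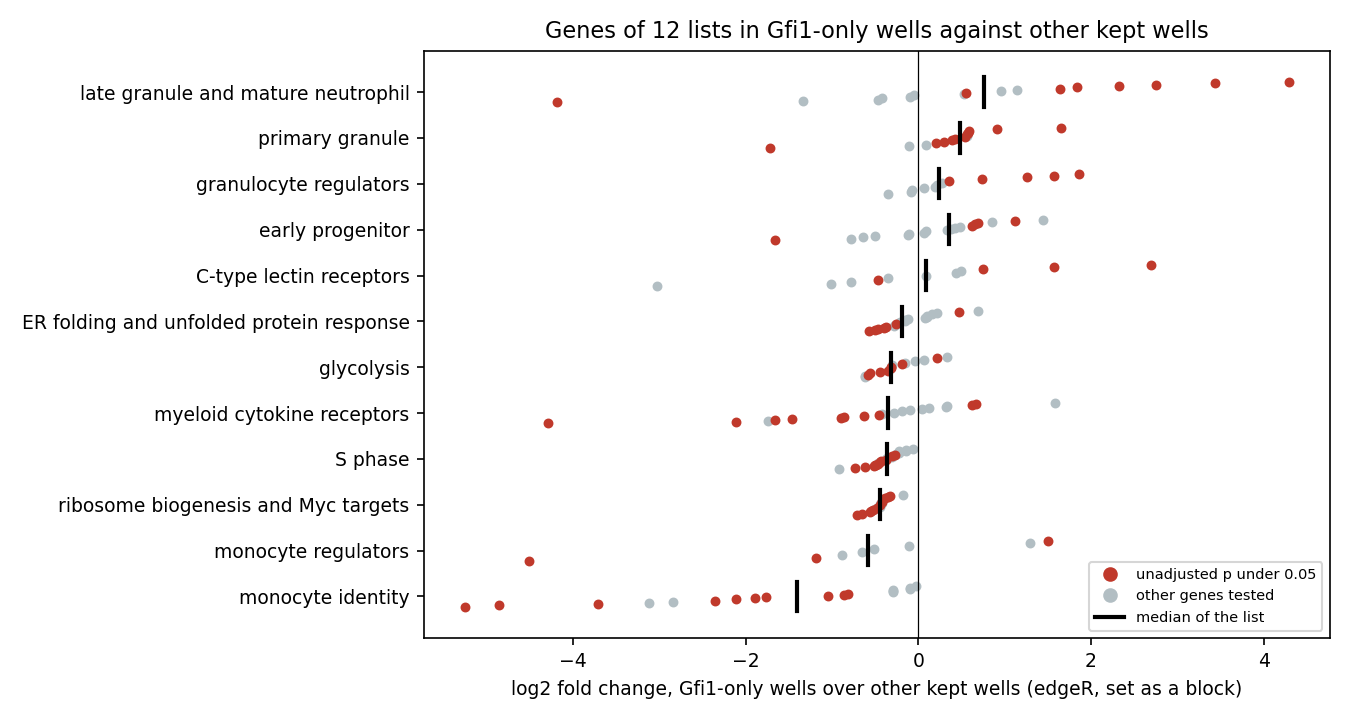
Log2 difference between Gfi1-only wells and other kept wells (x axis) for the tested genes of 12 lists (rows), with genes at an unadjusted p under 0.05 in red, other genes in grey and a black bar at each list's median. The medians run from 0.76 for late granule genes to -1.40 for monocyte identity genes, and the S phase and ribosome biogenesis rows lie wholly left of 0.

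Other lineages were checked within the members through their marker lists. Of the eosinophil genes 4 were tested against other wells, all with a positive difference, 2 at an unadjusted p under 0.05, and the median was 3.03. Of 8 basophil and mast genes 3 were positive, 1 at that p, with a median of -0.26, or 0.44 without wells of few reads. Against Irf8-only wells 9 of 9 basophil and mast genes were positive, 4 at that p, with a median of 1.73, and against wells with both 9 of 9, 3 at it, with a median of 3.04. Siglecf, a sialic acid receptor of eosinophils that is also found on some neutrophils, was at 75 CPM, 84.6 CPM, 85.9 CPM and 146 CPM against 22.9 CPM, 16.7 CPM, 46.7 CPM and 21.8 CPM in other wells (log2 difference 1.91 ± 0.34). The eosinophil granule genes did not spread over the members: 1 well of BCR-ABL replicate 4 held 111475 CPM of Prg2 and 34450 CPM of Epx, where the next member had 70.6 CPM and 23.2 CPM. That well also had 91.2 CPM of Gfi1, 4872 CPM of Elane and 22842 CPM of Mpo. A member of BCR-ABL replicate 1 held 7415 CPM of the basophil protease gene Prss34 with 128 CPM of Elane, the lowest Elane of any member. The summed eosinophil list ranged over members from 0 to 150341 CPM, and the summed basophil and mast list from 6.55 to 26358 CPM. The summed lymphoid list reached 897 CPM and the erythroid list 377 CPM in a member well, below the 2437 CPM and 1308 CPM of the highest other wells.

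Compared with wells that held Irf8 alone, 2 of 15627 genes (0.0128%) passed an adjusted p under 0.05 in edgeR's test, S100a9 and Degs1. Sums of fewer than 5 wells were left out, so BCR-ABL replicate 4 gave no Irf8-only sum, and 14 sums, those of wells with neither transcript included, entered the fit with their set as a block. S100a9 (chr3:90692632-90695721, minus strand, GRCm38) was at 2.06 CPM, 0.658 CPM and 1.15 CPM in the Irf8-only wells of BCR-ABL replicates 1 and 2 and the control set, far below the 53.5 to 155 CPM of the members. It rose by a log2 value of 6.65 ± 0.62 (adjusted p = 0.00933). In single wells, 29 of 146 members had S100a9 at 100 CPM or more, and 0 of 83 Irf8-only wells did (95% interval up to 4.35%).

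Degs1 (chr1:182275772-182282804, minus strand) encodes the desaturase that completes ceramide synthesis. It was at 37.2 CPM, 32.7 CPM, 49.9 CPM and 58.9 CPM in members and at 140 CPM, 158 CPM and 182 CPM in Irf8-only wells, and wells with both transcripts lay between, at 114 CPM, 96.7 CPM, 97.0 CPM and 120 CPM. Against Irf8-only wells it fell by 1.90 ± 0.18 on the log2 scale (adjusted p = 0.00933). Both calls needed 3 of the 4 sets: the adjusted p of S100a9 was 0.131 without BCR-ABL replicate 1, 0.681 without replicate 2 and 0.216 without the control set, and that of Degs1 was 0.344, 0.681 and 0.223. Without replicate 4 both were at 0.0494. S100a9 also missed the threshold at limits of 50 CPM (0.0640) and without the wells of few reads (0.0805), where its log2 differences were 6.67 and 7.03.

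Without adjustment 672 genes (4.3%) were higher and 758 (4.85%) lower than in Irf8-only wells. Higher genes by the naming rule included Suco, an endoplasmic reticulum protein, Cdk6, the G1 kinase, and Cd63, a granule membrane tetraspanin with a near-identical pseudogene that makes its counts uncertain. Cdk6 was at 1281 CPM, 1291 CPM, 1462 CPM and 1860 CPM against 828 CPM, 776 CPM and 939 CPM. Its groups did not overlap, and its adjusted p was 0.127. Lower genes were Emb, Txndc5, a disulfide isomerase, Ifitm3, an interferon-induced antiviral protein, and Ms4a4c, of which the first 3 had an adjusted p of 0.0538. Txndc5 was at 33.2 CPM, 49.997 CPM, 50.7 CPM and 46.6 CPM in members and 214 CPM, 328 CPM and 394 CPM in Irf8-only wells. Ifitm3 was at 57.4 CPM, 75.4 CPM, 51.6 CPM and 53.8 CPM against 277 CPM, 243 CPM and 173 CPM.

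Against wells with both transcripts, which carry Gfi1 too, no gene of 15627 passed (0%), with 657 (4.2%) higher and 655 (4.19%) lower without adjustment and 446 called by DESeq2. S100a9 came nearest, at 10.1 CPM, 2.37 CPM, 2.84 CPM and 1.88 CPM in wells with both (log2 difference 4.82 ± 0.50, adjusted p = 0.0507). Vezf1, a zinc-finger factor, was at 51.3 CPM, 48.2 CPM, 57.9 CPM and 75.4 CPM against 22.8 CPM, 23.9 CPM, 26.1 CPM and 30.4 CPM, without overlap. Btnl9, a butyrophilin-like protein, and Srsf5, a splicing factor, followed with log2 differences of 2.10 ± 0.36 and 0.56 ± 0.10. Among the genes that were lower, Degs1, Ifitm3 and Emb had an adjusted p of 0.0845 and Milr1 and Txndc5 one of 0.0919. The members are the same wells in both contrasts, which are therefore not independent.

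Among the members, BCR-ABL sets were then set against the control set. The fit takes its spread from the 3 BCR-ABL sums alone, so the lone control sum is assumed to vary like them, and set and condition cannot be told apart for the control. No gene of 17423 passed (0%), and the lowest adjusted p was 0.193. Without adjustment 1875 genes (10.8%) were higher and 888 (5.1%) lower, DESeq2 called 1086 higher and 401 lower, and all 3 BCR-ABL sums lay above the control for 33.4% of genes and below it for 29.2%. The median over all genes was 0.20, so a list median near that value is no departure. Xist, the RNA that silences an X chromosome in female cells, was at 456 CPM, 0 CPM, 0.215 CPM and 717 CPM in members, and the part of sex in this comparison was not tested.

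Lcn2 was at 384 CPM, 210 CPM and 493 CPM in the members of the BCR-ABL sets and 73.9 CPM in the control members (log2 difference 2.32 ± 0.56, unadjusted p = 0.0117, adjusted p = 0.219). Per well its median was 239 CPM, 96.6 CPM and 484 CPM against 28 CPM. The gap was not limited to members: 96.7%, 73.7% and 100% of the other BCR-ABL wells had Lcn2 at 100 CPM or more, against 17.1% of the other control wells. Chil3, the chitinase-like protein Ym1 of neutrophil and macrophage precursors, was at 991 CPM, 322 CPM and 275 CPM against 12.3 CPM. All 3 BCR-ABL sums of both genes lay above the control. Cd177, a neutrophil surface glycoprotein, was at 5.10 CPM, 6.59 CPM and 15.6 CPM with 1 read in the control members. Of the 14 primary granule genes, 9 were above the control in all 3 BCR-ABL sets and 3 below, beside 33.4% and 29.2% of all genes. Their median was 0.30, beside 0.20 over all genes. Elane had a log2 difference of 0.27 and Mpo one of -0.04, and that of the regulator Cebpe was -0.16. S100a8, at 921 CPM, 864 CPM and 481 CPM against 1232 CPM, and S100a9 had sums below the control in 3 of 3 sets (-0.67 ± 0.40 and -0.84 ± 0.42). Per well the S100a8 median had the other order, at 561 CPM, 162 CPM and 294 CPM against 90.8 CPM, and 66.7%, 61.9% and 70.4% of BCR-ABL members reached 100 CPM against 50% in the control. Of the 12 control members, 3 held 4543 CPM, 4848 CPM and 6905 CPM of S100a8 and the next 465 CPM.

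The monocyte identity genes were on both sides of the control. Of 18 listed genes 8 were above it in all 3 BCR-ABL sets and 5 below, beside 33.4% and 29.2% of all genes, and the median of 0.55 ranged from 0.05 to 1.75 over the alternatives. At an unadjusted p under 0.05, 5 were higher with BCR-ABL and 2 in the control. F13a1 had 427 CPM, 231 CPM and 409 CPM against 67.5 CPM (log2 difference 2.43 ± 0.46), and Csf1r had 47.8 CPM, 42.2 CPM and 41 CPM against 16.8 CPM (1.41 ± 0.28). Ccr2, the receptor that draws monocytes out of the marrow, had 43 CPM, 33.5 CPM and 73.1 CPM against 8.98 CPM. Slpi, a protease inhibitor, was on the other side, at 205 CPM, 238 CPM and 158 CPM against 492 CPM. Il17ra, an interleukin 17 receptor chain, was at 62.1 CPM, 55 CPM and 68.1 CPM against 14.2 CPM (2.15 ± 0.26). Far2 (307 CPM, 308 CPM and 145 CPM against 74.2 CPM) and Clec4a2 were higher in 3 of 3 BCR-ABL sets too.

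Early progenitor genes leaned the other way. Of 22 listed genes 21 were tested. Of these, 12 were below the control in all 3 BCR-ABL sets and 3 above, beside 29.2% and 33.4% of all genes. The median was -0.40 and the mean 0.57, which differ in sign. Among the positive values were those of Procr and Mecom, at 1.43 CPM or less in each BCR-ABL set and at 0 reads in the control members. At an unadjusted p under 0.05, Tal1 was higher and Lmo2 lower. Lmo2, an adaptor of blood transcription complexes, was at 172 CPM, 151 CPM and 210 CPM against 370 CPM (-1.03 ± 0.21). Myb was at 591 CPM, 577 CPM and 663 CPM against 940 CPM (-0.59 ± 0.12), and Cd34 at 96.7 CPM, 222 CPM and 123 CPM against 343 CPM (-1.19 ± 0.47). Hdc, the histamine-forming enzyme, Siglecf and Ctsc were below the control in 3 of 3 sets, by -0.74 ± 0.16, -0.81 ± 0.16 and -1.05 ± 0.23.

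**Figure D4:**
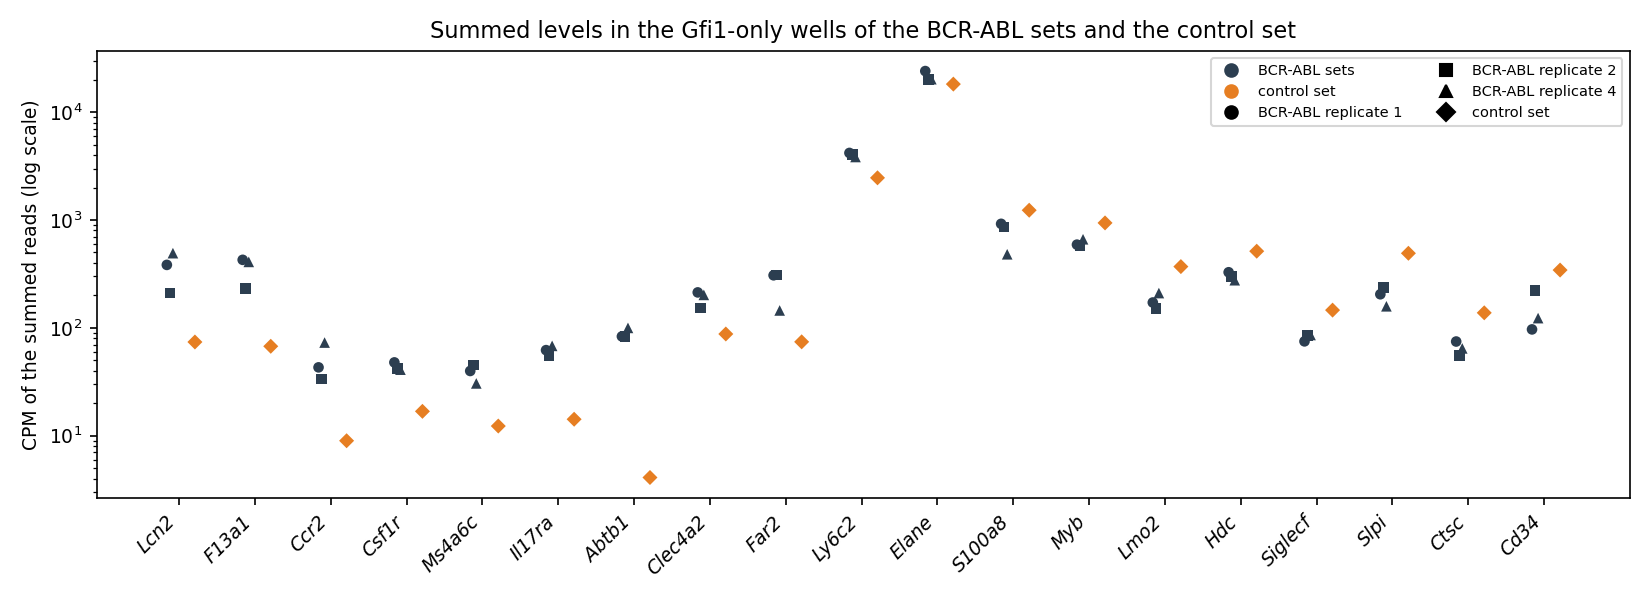
Level of 19 genes in the Gfi1-only wells, as CPM of summed reads on a log scale, with the 3 BCR-ABL sets in dark blue and the control set in orange. The first 11 genes, from Lcn2 to Elane, have all 3 BCR-ABL sums above the control, and the last 8, from S100a8 to Cd34, have all 3 below it.

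The genes with the smallest p values here were not members of the lists. Abtb1, an ankyrin repeat and BTB domain protein, was at 83.3 CPM, 83.5 CPM and 99.9 CPM against 4.10 CPM (log2 difference 4.47 ± 0.28, adjusted p = 0.193), and 123 of 134 BCR-ABL members but 8 of 12 control members had a read. Zfp184, Anxa9 and Rnase4 had 18 CPM, 21.4 CPM and 17.1 CPM in BCR-ABL replicate 1 with similar values in replicates 2 and 4, and 0, 1 and 2 reads in the control members. The lower genes were Ino80d, a chromatin remodeller subunit, Cfap43, a cilium protein, Mgme1, a mitochondrial exonuclease, Syce2, a synaptonemal complex protein, and Hnrnpd, an RNA-binding protein. They differed by -1.37 ± 0.17, -1.30 ± 0.17, -1.32 ± 0.18, -1.08 ± 0.15 and -1.05 ± 0.14, each with an adjusted p of 0.193.

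Whether the gap between members and other wells differed between conditions was tested as an interaction over the 8 sums. No gene of 15306 passed (0%), 1303 (8.51%) had a positive and 543 (3.55%) a negative interaction without adjustment, DESeq2 called 534 and 182, and the lowest adjusted p was 0.294. The other wells are not alike between the sets: Irf8-only wells made up 15 of 30, 15 of 38 and 1 of 20 of them with BCR-ABL induced and 52 of 82 in the control set, and the part of this mixture in the interaction was not tested. For monocyte identity genes, 16 of 18 had a positive interaction, 9 at an unadjusted p under 0.05, with a median of 1.31 beside 0.10 over all genes. For F13a1 (2.49 ± 0.28) members were below other wells in both conditions, by more in the control set, where they had 67.5 CPM against 876 CPM. For the 18 ribosome biogenesis genes the median was -0.53, and 6 negative and 1 positive values had an unadjusted p under 0.05.

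Of the 14 primary granule genes, 13 had a negative interaction, 3 of them and no positive one at an unadjusted p under 0.05, with a median of -0.29. The 16 late granule genes were mixed, with 10 negative and 6 positive values, of which 5 and 3 had an unadjusted p under 0.05, and a median of -0.14. Wfdc21 (-4.33 ± 0.63) was at 87.5 CPM in control members and 1.58 CPM in the other control wells, and in the BCR-ABL sets the other wells had 28.2 CPM, 44.8 CPM and 43.3 CPM. Lcn2 (-1.08 ± 0.15), Pglyrp1 (-2.23 ± 0.39), Ms4a3 (-0.84 ± 0.11), a granulocyte precursor membrane protein, and Prss57 (-1.10 ± 0.24), a neutrophil serine protease, were negative too, while Chil3 (2.32 ± 0.62) and Cd177, which had 1 read in the control members, were positive. By the naming rule the positive interactions were Tmem119, Hinfp, Anxa9, Gpr65 and Car9. Gpr65, a proton-sensing receptor, was at 80.1 CPM, 76.8 CPM and 68.4 CPM in BCR-ABL members, 12 CPM in control members and 68.1 CPM in the other control wells. The negative ones were B4galt6, Ms4a3, Srm, Rpl10 and Tle1, of which B4galt6, a glycosphingolipid enzyme, had 253 CPM in control members against 35.8 CPM in the other control wells.

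The members varied widely among themselves, in ways the limits did not set. Of 146 members 45 had Cd34 at 100 CPM or more and 60 had Fcnb at 100 CPM or more, but only 2 had both, 43 had Cd34 alone, 58 had Fcnb alone and 43 had neither. The same split was seen in each set: wells with Cd34 alone numbered 10, 8, 19 and 6, and wells with Fcnb alone 17, 8, 30 and 3. This level of 100 CPM was chosen after the values had been seen. S100a8 went with Fcnb, at 100 CPM or more in 59 of the 60 Fcnb wells, and in 12 of the 45 Cd34 wells. All 29 wells with S100a9 at that level also had S100a8 at it. Wfdc21 was shared by 48 of the 60 Fcnb wells and by 2 of the 45 Cd34 wells.

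Cpa3, a carboxypeptidase gene of mast cell and basophil precursors, reached 100 CPM in 18 members. Of these, 16 also had Cd34 at that level, while 0 of 18 had Fcnb, Wfdc21 or S100a9. Lcn2 was spread more evenly, at 100 CPM or more in 108 members, among them 34 of the 45 Cd34 wells, 41 of the 60 Fcnb wells and 13 of the 18 Cpa3 wells. Elane reached 10000 CPM in 134 of 146 members, beside 54 of 83 Irf8-only wells and 46 of 66 wells with both transcripts.

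**Figure D5:**
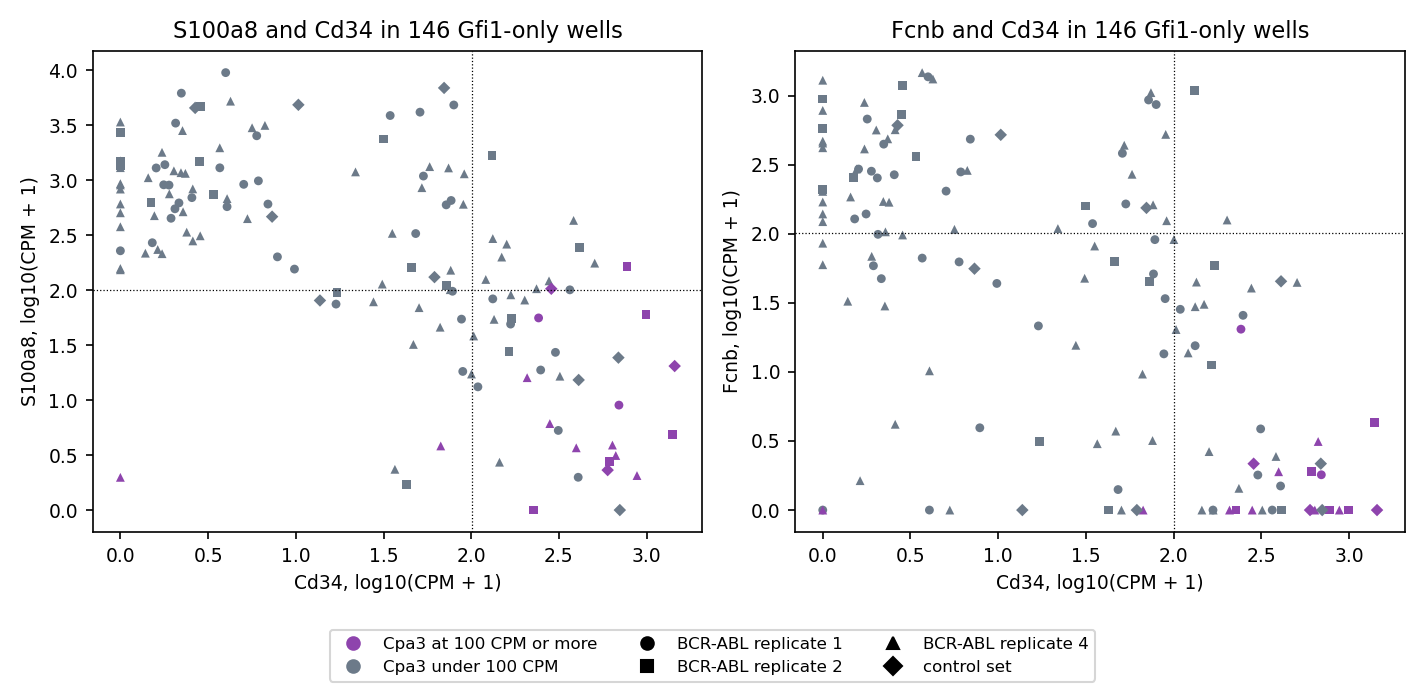
S100a8 (left, y axis) and Fcnb (right, y axis) against Cd34 (x axis), as log10(CPM + 1), in each of the 146 Gfi1-only wells, with 1 marker shape per set, wells with Cpa3 at 100 CPM or more in purple and dotted lines at 100 CPM. The upper right of the right panel holds 2 wells, and 16 of the 18 purple wells lie right of the Cd34 line.

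Elane itself ranged from 128 to 61454 CPM over the members of BCR-ABL replicate 1 and from 8539 to 29195 CPM over those of the control set. The genes most like it across the 146 members, by Spearman correlation of CPM centred within sets over 7687 genes detected in 50% of members, were Clec4a2 (0.63), Clec12a (0.56), Ly6c2 (0.55), S100a8 (0.54), Wfdc21 (0.54), Fcnb (0.53), C3 (0.51), Tmsb4x (0.50), Prtn3 (0.49) and Srgn (0.49). Cd34 was at -0.46. As sums over lists, late granule genes correlated with primary granule genes at 0.41, with early progenitor genes at -0.51 and with monocyte identity genes at 0.62. The monocyte identity sum includes the abundant Ly6c2, whose part in this correlation was not tested. The late granule sum also correlated with the spike-in share at 0.33 and with reads on genes at -0.27. For the monocyte identity sum these values were 0.32 and -0.33. S phase and ribosome biogenesis sums correlated at 0.45. These are descriptions across wells that share plates and depth and are not independent replicates.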

How the data were processed

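Single sorted GMPs were profiled by SMART-seq2 96 wells in each of 4 sets. The authors deposited read counts per gene, made with GSNAP (2015-09-29), HTSeq (0.5.3p3) and mm10, per the submitters' processing notes. For the annotation release and strand setting: not given in the sources used here. The 46078 gene rows took 44.9% of reads, and the 92 spike-in and 5 summary rows were left out of library sizes and tests. CPM were computed over gene reads. Members and gene lists were chosen with earlier results of these data known.

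Counts were summed per set and class and tested with edgeR 4.0.16 (TMM, filterByExpr, quasi-likelihood F test, Benjamini-Hochberg adjustment) in R 4.3.3, with Gfi1 and Irf8 left out of the tested genes. The set was a block in comparisons of wells within sets, since the sums of a set share that set's cells and preparation. DESeq2 1.42.0 and limma 3.58.1 were alternatives. The edgeR fit was also run on simulated counts for each comparison except that with Irf8-only wells. The simulated variation was below that estimated in the main fits, so no conclusion is drawn from it. The text names genes of the lists and, where fewer than 5 passed in a direction, the 5 with the smallest p there, on the same side in every set and with a read in 25% of wells of the higher arm. Likeness to Elane names the 10 highest correlations. Some genes that the rule selects are not reported here. Of 95 genes named with a test, 38 overlap exons of another gene in GENCODE vM21. The binomial intervals cover the sampling of wells only and treat wells as independent draws. Values after ± are standard errors derived from the edgeR test on the sums. SMART-seq2 has no molecular identifiers.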

Additional observations from a re-analysis of the deposited data

How the results depend on the processing

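Across 140 pairs of a named gene and a comparison, 2135 values were computed under alternatives. Of these, 1932 kept their direction with no recorded change of side of the threshold, 191 newly passed it, 8 no longer passed it and 4 reversed. Any value for which an alternative gave no adjusted p was counted among the 1932. Of the reversals 3 were of near-zero BCR-ABL against control values. With wells near the limits left out, Cebpe was at 0.058 and Mpo at 0.0023, and with wells of few reads left out Mpo was at 0.0066. The other was Spi1 against other wells, which ranged from -0.12 to 0.012 with 1 set left out. The cause was not tested.

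The number of genes past the threshold moved most with the tool. Against all other wells it was 0, and 1456 with DESeq2, 6 after thinning to 200000 reads, 2 with no replicate block, and 1 each at limits of 50 CPM, without wells of few reads and with no filter on low counts. Against Irf8-only wells it was 2, and 553 with DESeq2, 274 with limma-voom, 172 at limits of 10 CPM, 63 after thinning, 6 with no filter, 5 with no replicate block and 4 without wells of few reads. Leaving out 1 set gave 0 to 6. Against wells with both transcripts it was 0, and 446 with DESeq2, 37 with limma-voom, 16 after thinning, 11 at limits of 10 CPM, 4 with no replicate block, 2 without wells of few reads and 1 with no filter. For BCR-ABL against control it was 0, and 1487 with DESeq2 and 1 with no filter. For the interaction it was 0, and 716 with DESeq2. The cause was not tested.

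No paired analysis was possible because the control is a single set in the BCR-ABL comparison, and for the same reason it could not be left out there. Leaving out wells of few reads, or the well with the most genes, was decided once the data were known. The 12 control wells limit every comparison with the control.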

Other observations

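The early progenitor list had values on both sides in the members and the other kept wells. Of 22 listed genes 18 were tested, and at an unadjusted p under 0.05 4 were higher and 1 was lower, with a median log2 difference of 0.35. Bcl11a, a zinc-finger factor of lymphoid and stem cells, was at 54.1 CPM, 46.2 CPM, 64.7 CPM and 74.2 CPM in members against 33.8 CPM, 34 CPM, 40.9 CPM and 40.2 CPM, and the groups did not overlap (0.66 ± 0.14). Erg and Meis1, both stem cell factors, were above in 4 of 4 sets as well (1.12 ± 0.37 and 0.70 ± 0.25), with an overlap between the groups for Meis1. Cd34 went the other way, with 100 CPM or more in 45 of 146 members (30.8%) and 120 of 170 other wells (70.6%), and a difference of -0.51 ± 0.27. The summed list was higher in members in 3 of 4 sets and lower in BCR-ABL replicate 4, at 1021 CPM against 1238 CPM. Of Bcl11a, Erg and Meis1, none passed after adjustment in edgeR's test.

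Chaperone genes of the endoplasmic reticulum leaned down, with a median of -0.18 over 20 genes, and without adjustment 6 were lower and 1 was higher at p under 0.05. Hsp90b1, the reticulum form of Hsp90, was at 645 CPM, 928 CPM, 524 CPM and 656 CPM in members against 1127 CPM, 1128 CPM, 603 CPM and 1061 CPM. Pdia4, a disulfide isomerase, was lower in 4 of 4 sets (-0.47 ± 0.11), and Dnajb9, a co-chaperone, was the higher one (0.48 ± 0.17). Of the fatty acyl-CoA reductases of ether lipid synthesis, Far1 was below in 4 of 4 sets (-0.62 ± 0.13) while its paralogue Far2 was above. Wells with neither Gfi1 nor Irf8 at the limits held Cpa3 at 100 CPM or more in 7 of 21, and S100a9 in 2 of 21.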
